A study of Saccharomyces cerevisiae with 8 samples.

Results

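The nuclear genes of the yeast respiratory chain and ATP synthase were followed through caffeine treatment and through mutation of PCF11, which encodes an essential subunit of the machinery that cleaves and polyadenylates RNA polymerase II transcripts. The members were taken by systematic name: the nuclear genes of complexes II to V and NDI1, 34 of the 5933 genes in the tables. They comprise 9 genes of complex IV, 9 of complex III, 4 of complex II, 11 of complex V and NDI1. Poly(A)-tailed RNA had been read by direct RNA sequencing on the Helicos platform, in which a read marks the 3′ end of 1 RNA molecule. Levels are therefore given as CPM of 3′ ends, TMM-scaled, and need no correction for gene length. All 8 cultures were of the W303 strain with ura3-1, ade2-1, leu2, his3-11,15 and a trp1 deletion. In all of them the chromosomal PCF11 was replaced with TRP1, and a LEU2 plasmid supplied PCF11. The pcf11-13 strain was MATa and had a pcf11-13 plasmid with no tag named, and the pcf11-dNL strain was MATalpha with a V5- and MYC-tagged plasmid named deltaN-link. Wild type was MATalpha with V5- and MYC-tagged PCF11. Each strain was grown in rich YPAD medium. Treated cultures had a further 2 h in 20 mM caffeine after the density at which untreated ones were harvested, so caffeine and time in culture cannot be told apart. Each mutant had 1 caffeine and 1 untreated library. The pcf11-13 cultures belonged to experiment 1, and those of pcf11-dNL to experiment 2. Wild type had 1 caffeine and 1 untreated library in each experiment. Nothing in the labels says that replicates came from separate cultures beyond the experiment numbers, so the p-values reflect only how far these samples lie apart, and that spread may be technical.

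Electrons from NADH and succinate enter the yeast chain at NDI1, the internal NADH dehydrogenase that stands in place of a complex I, and at succinate dehydrogenase (complex II). They pass through coenzyme Q to the cytochrome bc1 complex (complex III), on through cytochrome c to cytochrome c oxidase (complex IV), and the proton gradient so built drives ATP synthase (complex V). In glucose medium budding yeast ferments and keeps respiratory genes low. When glucose runs short the Hap2/3/4/5 complex binds CCAAT boxes in many of their promoters, and the amount of Hap4 limits its activity.

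The libraries held between 1070278 and 4555751 counts, and the 34 genes took between 0.571% and 0.929% of them. The PCF11 count ran from 142 to 529, and PCF11 passed the edgeR test in none of the 6 comparisons (lowest adjusted p = 0.25). The level of the transcript does not test the alleles, since every strain carried a plasmid that supplied a form of PCF11. The 6 MATa-specific genes summed to 3293 and 4336 unscaled CPM in pcf11-13 with and without caffeine, against 134 to 286 in the other libraries. The 4 MATalpha-specific genes summed to 297 unscaled CPM in untreated pcf11-13, against 2440 to 4575 in the other untreated libraries, but to 464 in pcf11-13 with caffeine, against 405 to 589 in the others. By gene in TMM-scaled CPM with caffeine, SAG1 was higher in pcf11-13 (357, against 132 to 183). MF(ALPHA)1 (14.7, against 129 to 274) and STE3 (32.5, against 116 to 169) were lower there. MF(ALPHA)2 was alike (26.7, against 24.8 to 35.1). Both wild-type libraries of experiment 1 stood apart: URA3 and the genes of the 2-micron plasmid took 11.4% of the counts with caffeine and 8.36% without it, against at most 0.463% in every other library. The label of these cells names ura3-1 and no URA3 plasmid. Counts over all strains and for the mutants against wild type are therefore also given without this pair of libraries. For caffeine in wild type and the interactions no such fit was run, since no replicate would be left. In bulk RNA, fewer cells that express a gene and less RNA per cell cannot be told apart.

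Promoter sequence is shown first, because many members share a motif that the choice of genes did not use. The extended CCAAT box ACCAATNA, in which N is any base, was searched on both strands of the 500 bases before each start codon in the RefSeq R64 (sacCer3) genome. It occurred in 16 of 34 members (47.1%), against 501 of 5880 genes (8.52%). The shorter CCAAT, which every ACCAATNA contains, occurred in 32 of 34 members (94.1%), against 62.4% of all genes. The 16 extended boxes lay between 73 and 351 bases before the start codon, with a median of 204, and 15 of them read in the direction of the gene. Windows of 30 bases from the promoters of the 7 members that carry the box and changed with caffeine over all strains are printed below in the direction of the gene, with the box in capitals (in COX6 it reads on the other strand). COX6 and COX5B rose, and the other five fell.
COX6, chrVIII:209477-209506, + strand: gaaaagggaccTAATTGGTccggtcaaagc
COX5B, chrIX:155138-155167, + strand: ttaaacaatagACCAATTAtttcaatttaa
COX8, chrXII:910149-910178, - strand: aaacggtttgcACCAATCAtacgagagaag
COX12, chrXII:225360-225389, - strand: tcataacattgACCAATCAattttcagaaa
ATP7, chrXI:408149-408178, - strand: gtaaaagatacACCAATTAccacttgctgc
ATP14, chrXII:722553-722582, - strand: gccatacacgaACCAATTAtgcatcataaa
SDH1, chrXI:171429-171458, - strand: ggcgggggtggACCAATCAcagcgcagaac
The box was thus found in 2 of the 5 members that rose with caffeine, in 5 of the 8 that fell and in 9 of the 21 that passed the test in neither direction. A match describes these letters only, and binding was not measured.

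Averaged over the 8 libraries, the members ran from 44.2 CPM for ATP3, the gamma subunit of ATP synthase, to 1064 CPM for QCR9, a small subunit of the bc1 complex. Their median was 173 CPM, against 91.6 CPM over all 5849 genes tested. QCR9 had 731 CPM in pcf11-13, 1052 in pcf11-dNL and 950 and 1343 in wild type (experiments 1 and 2) with caffeine, against 884 in pcf11-13, 1465 in pcf11-dNL and 720 and 1364 in wild type without it. ATP3 had 48.9 CPM in pcf11-13, 49.4 in pcf11-dNL and 55 and 61.7 in wild type with caffeine, against 30.8 in pcf11-13, 42.9 in pcf11-dNL and 13.9 and 51 in wild type without it. The lowest ATP3 value rested on about 14 counts. The caffeine and untreated libraries overlapped for both genes, and ATP3 was higher with caffeine in every pair without passing the test (0.61 ± 0.31, adjusted p = 0.15).

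Over all strains, 5 of the 34 members rose with caffeine, 8 fell and 21 did not pass the test (edgeR quasi-likelihood test, genotype plus medium, adjusted p at most 0.05). Of all genes 37.9% were called, 19.9% higher and 18% lower, so the number of members called is close to the share over all genes. Their median log2 change was 0.08, against -0.00 over all genes. Complex IV had 2 that rose and 4 that fell, complex III 2 and 1, complex II 0 and 1, and complex V 1 and 2. In 23 members the difference had the same sign in all 4 caffeine-untreated pairs, 10 higher and 13 lower, against 50.7% of all genes, 26% higher and 24.6% lower. In 8 members the 4 caffeine libraries lay wholly outside the range of the 4 untreated ones, 3 above and 5 below, against 31.1% of all genes, 15.8% above and 15.3% below. Without both wild-type libraries of experiment 1, 24 members had the same sign in the remaining pairs, against 55.5% of all genes, and 10 did not overlap, against 37.4%. In the fit without that pair of libraries, COX6 and ATP14 were the 2 members called, and 793 genes were called in all, against 2219. Single libraries also moved the count of 13 members, and with it that of all genes. Without the pcf11-dNL caffeine library 2 members and 1087 genes were called, and without the untreated pcf11-dNL library 3 members and 1121 genes. The counts were 5 members and 1530 genes without the wild-type caffeine library of experiment 1. They were 6 members and 1569 genes without the untreated wild-type library of experiment 2.

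**Figure D1:**
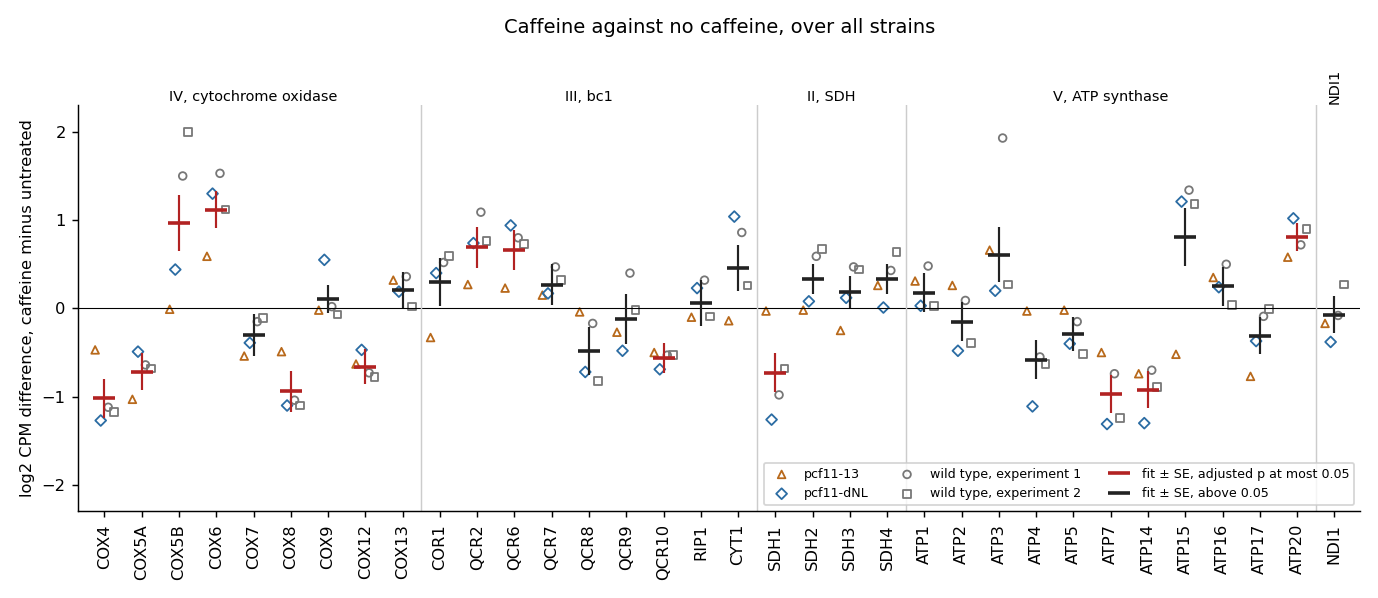
Log2 difference in CPM between caffeine and untreated cultures for the 34 genes, ordered by complex. Horizontal ticks give the fit over all strains with its standard error, red where the adjusted p was at most 0.05, and open symbols give the 4 single pairs; COX6 (1.12) and COX4 (-1.02) lie farthest apart within complex IV.

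Complex IV held the widest spread. COX6 (YHR051W), the subunit VI gene, had 141 CPM in pcf11-13, 254 in pcf11-dNL and 216 and 256 in wild type with caffeine, against 93.4 in pcf11-13, 103 in pcf11-dNL and 74.4 and 118 in wild type without it. All caffeine libraries lay above all untreated ones, and COX6 rose by 1.12 ± 0.21 (log2, SE; adjusted p = 0.0046). It was called in each of the 8 fits that left out 1 library. COX4 (YGL187C), which encodes the zinc-binding subunit IV, had 245 CPM in pcf11-13, 257 in pcf11-dNL and 216 and 289 in wild type with caffeine, against 340 in pcf11-13, 622 in pcf11-dNL and 470 and 653 in wild type without it. The groups did not overlap, and the log2 change was -1.02 ± 0.22 (adjusted p = 0.0084). The call was lost without the pcf11-dNL caffeine library (-0.93 ± 0.28, adjusted p = 0.053). COX8 (YLR395C), a small membrane subunit, had 196 CPM in pcf11-13, 242 in pcf11-dNL and 205 and 301 in wild type with caffeine, against 275 in pcf11-13, 520 in pcf11-dNL and 425 and 645 in wild type without it. The ranges overlapped across strains, although each strain was lower with caffeine, and COX8 changed by -0.94 ± 0.23 (adjusted p = 0.013). This call was lost without either pcf11-dNL library or the wild-type caffeine library of experiment 1 (adjusted p from 0.051 to 0.066). COX12 (YLR038C), the subunit VIb gene, had 95.6 CPM in pcf11-13, 166 in pcf11-dNL and 112 and 164 in wild type with caffeine, against 148 in pcf11-13, 230 in pcf11-dNL and 186 and 282 in wild type without it. Every pair was lower with caffeine, with a log2 change of -0.66 ± 0.20 in the fit (adjusted p = 0.031), lost in 4 of the 8 fits without 1 library: either pcf11-dNL one, the wild-type caffeine library of experiment 1 and the untreated one of experiment 2 (adjusted p from 0.075 to 0.1). COX7, COX9 and COX13 did not pass the test, with log2 changes of -0.30, 0.11 and 0.21.

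The subunit V genes, COX5A and COX5B, are alternative isoforms, of which COX5B is known as the form made when oxygen is low. COX5A (YNL052W) had 66.2 CPM in pcf11-13, 90.8 in pcf11-dNL and 79.5 and 120 in wild type with caffeine, against 136 in pcf11-13, 128 in pcf11-dNL and 124 and 193 in wild type without it. COX5B (YIL111W) had 236 CPM in pcf11-13, 349 in pcf11-dNL and 378 and 367 in wild type with caffeine, against 237 in pcf11-13, 257 in pcf11-dNL and 133 and 91.5 in wild type without it. COX5A was lower in every pair, whereas COX5B was level in pcf11-13 and higher in the other three pairs. COX5A fell by 0.72 on the log2 scale (SE 0.21, adjusted p = 0.026), and COX5B rose by 0.97 ± 0.32 (adjusted p = 0.042). With the experiment number as a replicate block, the COX5B change was 0.98 ± 0.34 and missed the threshold (adjusted p = 0.055). The COX5B call was also lost without any 1 wild-type or pcf11-dNL library (adjusted p from 0.064 to 0.13). The COX5A call was lost without any 1 library other than the wild-type untreated one of experiment 1 and the wild-type caffeine one of experiment 2 (adjusted p from 0.05 to 0.084). COX5B made up 78.1% of the 2 genes' counts in pcf11-13, 79.3% in pcf11-dNL and 82.6% and 75.3% in wild type with caffeine, against 63.5% in pcf11-13, 66.7% in pcf11-dNL and 51.7% and 32.1% in wild type without it. The caffeine libraries lay within 75.3% to 82.6%, and the untreated ones were all lower and wider apart. The exact 95% binomial intervals, which cover counting error only, ran from 73.5% to 77.1% for the lowest caffeine library (wild type, experiment 2) and from 62% to 71.3% for the highest untreated one (pcf11-dNL).

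**Figure D2:**
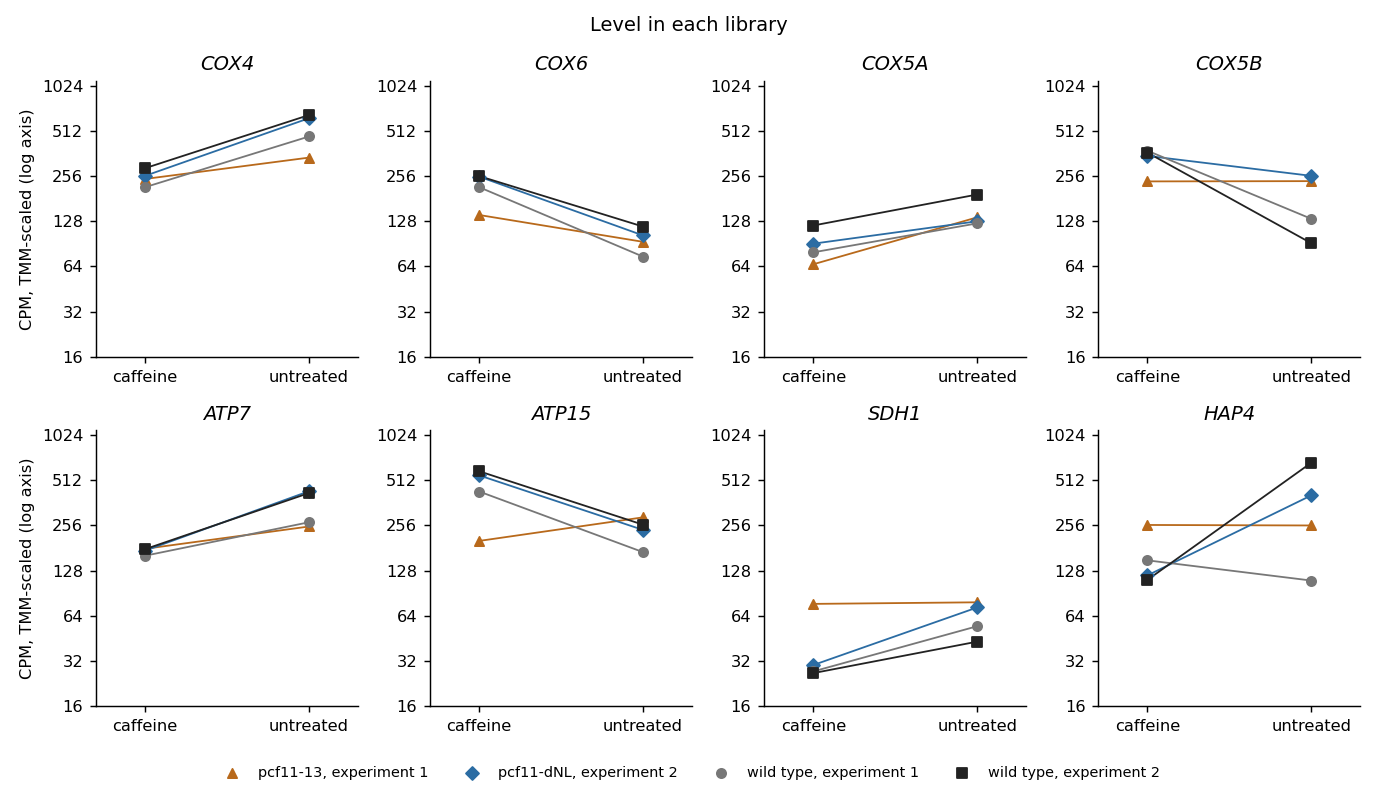
CPM in each library on a log axis for 7 members and HAP4, caffeine to the left of untreated, with a line for each strain and experiment. COX6 is higher and COX4, COX5A and ATP7 are lower with caffeine in every strain without overlap, while the pcf11-13 lines for COX5B (236 and 237 CPM), SDH1 (76.9 and 78.8 CPM) and HAP4 (258 and 256 CPM) are nearly level.

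In complex III, QCR2 and QCR6 rose and QCR10 fell. QCR2 (YPR191W), a core protein of the complex, had 113 CPM in pcf11-13, 252 in pcf11-dNL and 198 and 282 in wild type with caffeine, against 94.2 in pcf11-13, 151 in pcf11-dNL and 92.3 and 167 in wild type without it. QCR6 (YFR033C), the acidic hinge protein, had 125 CPM in pcf11-13, 146 in pcf11-dNL and 111 and 178 in wild type with caffeine, against 107 in pcf11-13, 75.6 in pcf11-dNL and 63.5 and 106 in wild type without it. Every pair of both genes was higher with caffeine, and only QCR6 had no overlap between the groups. The log2 changes were 0.69 ± 0.23 for QCR2 (adjusted p = 0.043) and 0.66 ± 0.23 for QCR6 (adjusted p = 0.049), and each call was lost without any 1 wild-type or pcf11-dNL library (adjusted p from 0.051 to 0.18). With RLE scaling QCR6 missed the threshold (adjusted p = 0.053). QCR10 (YHR001W-A), a small subunit, had 144 CPM in pcf11-13, 135 in pcf11-dNL and 123 and 158 in wild type with caffeine, against 205 in pcf11-13, 217 in pcf11-dNL and 178 and 228 in wild type without it. The groups did not overlap, and QCR10 changed by -0.56 ± 0.17 (adjusted p = 0.028), lost without either pcf11-dNL library, the wild-type caffeine library of experiment 1 or the untreated one of experiment 2 (adjusted p from 0.073 to 0.12). The Rieske protein gene RIP1 had a log2 change of 0.06 ± 0.26, and cytochrome c1 (CYT1) one of 0.46 ± 0.26; neither passed the test.

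In complex II, SDH1 fell and the other members did not pass the test. SDH1 (YKL148C), the flavoprotein subunit, had 76.9 CPM in pcf11-13, 30.1 in pcf11-dNL and 27.3 and 26.6 in wild type with caffeine, against 78.8 in pcf11-13, 72.8 in pcf11-dNL and 54.6 and 43.1 in wild type without it. It was lower with caffeine in wild type and pcf11-dNL and level in pcf11-13. SDH1 fell by 0.73 on the log2 scale (SE 0.22, adjusted p = 0.028), a call lost without any 1 wild-type or pcf11-dNL library (adjusted p from 0.055 to 0.15). The iron-sulfur subunit SDH2 and the membrane anchors SDH3 and SDH4 had log2 changes of 0.33, 0.19 and 0.33, none of which passed the test.

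In complex V, ATP20 rose and ATP7 and ATP14 fell. ATP20 (YPR020W), the subunit g gene involved in pairing ATP synthase into dimers, had 195 CPM in pcf11-13, 215 in pcf11-dNL and 203 and 244 in wild type with caffeine, against 131 in pcf11-13, 105 in pcf11-dNL and 123 and 131 in wild type without it. All caffeine libraries were above all untreated ones, and the log2 change was 0.81 ± 0.16 (adjusted p = 0.0056), called in each of the 8 fits without 1 library. ATP7 (YKL016C), the subunit d gene of the peripheral stalk, had 179 CPM in pcf11-13, 174 in pcf11-dNL and 161 and 178 in wild type with caffeine, against 252 in pcf11-13, 433 in pcf11-dNL and 269 and 421 in wild type without it. ATP14 (YLR295C), the subunit h gene of the same stalk, had 114 CPM in pcf11-13, 172 in pcf11-dNL and 148 and 200 in wild type with caffeine, against 191 in pcf11-13, 425 in pcf11-dNL and 241 and 372 in wild type without it. The groups did not overlap for ATP7, and for ATP14 the highest caffeine library passed the lowest untreated one. Both were lower in every pair, with log2 changes of -0.97 ± 0.21 for ATP7 (adjusted p = 0.0084) and -0.92 ± 0.21 for ATP14 (adjusted p = 0.0098) in the fit. Both calls were lost without either pcf11-dNL library (adjusted p from 0.051 to 0.061). ATP1 and ATP2, the alpha and beta subunit genes, had log2 changes of 0.18 ± 0.22 and -0.15 ± 0.22 and did not pass the test. ATP4, the subunit b gene, did not pass either, at -0.58 ± 0.22 (adjusted p = 0.064), although its 4 caffeine libraries (262 to 332 CPM) lay under the 4 untreated ones (340 to 590 CPM).

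In wild type alone, which shares its libraries with the comparison over all strains, 8 members were called, 4 in each direction, against 31.6% of all genes, 17.1% higher and 14.5% lower. COX5B rose by 1.74 ± 0.28 (adjusted p = 0.004), COX6 by 1.29 ± 0.28 (adjusted p = 0.011), ATP15 by 1.24 ± 0.31 (adjusted p = 0.02) and ATP20 by 0.82 ± 0.23 (adjusted p = 0.03). COX4, COX8, ATP7 and SDH1 fell, with log2 changes of -1.15 ± 0.30, -1.08 ± 0.32, -1.03 ± 0.29 and -0.85 ± 0.24. The replicate block called 12 members and 1880 genes, against 1849 genes in the main fit. DESeq2 called 6 members and 1422 genes, without ATP20 (adjusted p = 0.069) and SDH1 (adjusted p = 0.094). Leaving out the untreated wild-type library of experiment 2 left 5 members called. COX5B and COX6 were called without any 1 library, while each of the other six lost its call without at least 1 wild-type library, SDH1 without any 1 of the 4. ATP15 (YPL271W), the epsilon subunit of the rotor stalk, had 202 CPM in pcf11-13, 552 in pcf11-dNL and 431 and 588 in wild type with caffeine, against 290 in pcf11-13, 239 in pcf11-dNL and 170 and 259 in wild type without it. It was higher with caffeine in wild type and pcf11-dNL and lower in pcf11-13, and over all strains it missed the threshold (0.81 ± 0.33, adjusted p = 0.083).

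Whether the caffeine response differed between a mutant and wild type was tested by the interaction of strain and medium. For pcf11-13 the edgeR test called 0 of 5849 genes (826 at an unadjusted p under 0.05, 2 of them members), and DESeq2 called 42 genes and 0 members. The largest member differences were ATP15, whose caffeine effect in pcf11-13 minus that in wild type was -1.77 ± 0.54 on the log2 scale (adjusted p = 0.26), and COX5B, at -1.74 ± 0.46 (adjusted p = 0.25). COR1, a core protein of the bc1 complex, came next at -0.88 ± 0.64 (adjusted p = 0.55). For pcf11-dNL the edgeR test also called 0 genes (128 at an unadjusted p under 0.05, 1 of them a member, COX5B), and DESeq2 called 3 genes and 0 members. COX5B differed there by -1.29 ± 0.46, COX9 by 0.59 ± 0.39 and CYT1 by 0.58 ± 0.57 (adjusted p = 1 each). COX9, the subunit VIIa gene, had 55.1 CPM in pcf11-13, 63.1 in pcf11-dNL and 63.4 and 66 in wild type with caffeine, against 55.9 in pcf11-13, 42.9 in pcf11-dNL and 62.5 and 69.2 in wild type without it. CYT1 had 107 CPM in pcf11-13, 174 in pcf11-dNL and 108 and 142 in wild type with caffeine, against 118 in pcf11-13, 84 in pcf11-dNL and 59.5 and 119 in wild type without it. The lowest COX9 value was that of untreated pcf11-dNL, and the highest CYT1 value that of pcf11-dNL with caffeine. Each mutant had 1 library per medium, so the spread in this fit came from the wild-type pairs, which differ from each other as described for the 2 experiments.

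Over both media, pcf11-13 differed from wild type at 1 member, SDH1, against 3.09% of all genes called. The pcf11-13 libraries (76.9 CPM with caffeine and 78.8 CPM without) were above all 4 wild-type libraries (26.6 to 54.6 CPM), and SDH1 was 1.14 ± 0.25 higher (log2, SE; adjusted p = 0.0497). The call was lost with the replicate block (1.05 ± 0.32, adjusted p = 0.21), in 7 of the 8 fits without 1 library, and without both wild-type libraries of experiment 1 (1.22 ± 0.35, adjusted p = 0.23). Without the pcf11-13 caffeine library the difference was 0.62 ± 0.25. DESeq2 called 4 members and 763 genes, against 181 genes in the edgeR fit. Next came SDH4, with 265 CPM in caffeine and 221 CPM untreated in pcf11-13, against 168 and 164 CPM in caffeine and 124 and 105 CPM untreated in wild type (0.81 ± 0.20, adjusted p = 0.065). The 4 genes of complex II all had estimates above 0, with a median of 0.62. They also had in pcf11-dNL against wild type (median 0.32), where none was called. The 11 of complex V all had estimates below 0 in pcf11-13, with a median of -0.32, as had 2970 of all 5849 genes. COR1 had the lowest estimate, with 36.9 CPM in caffeine and 46.5 CPM untreated in pcf11-13, against 63.1 and 116 CPM in caffeine and 43.7 and 77.1 CPM untreated in wild type (-0.82 ± 0.34, adjusted p = 0.22). The strain also differed from wild type in mating type, which cannot be told apart from the allele.

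The pcf11-13 estimates also carried the difference between experiments, since this strain was grown in experiment 1 and wild type in both. Within experiment 1, with 1 library a side and no test, 14 of 34 members were higher in pcf11-13 with caffeine (median -0.04) and 24 of 34 untreated (median 0.25). Of all genes, 48.8% were higher with caffeine and 51.4% untreated. Of the 11 members of complex V, 3 were higher in pcf11-13 with caffeine and 5 untreated, so its estimates were not all below 0 within the experiment. Of the 4 of complex II, 3 were higher with caffeine and 4 untreated. The median over the members was -0.21 in the fit without a block and 0.06 with it. The direction of the members as a set in pcf11-13 thus depended on the wild-type libraries taken. SDH1 (1.47 with caffeine and 0.52 untreated) and SDH4 (0.66 and 0.83) were higher in both media of experiment 1. So were other members, among them QCR8 (0.75 and 0.63), SDH2 (0.16 and 0.77) and COX7 (0.24 and 0.63).

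**Figure D3:**
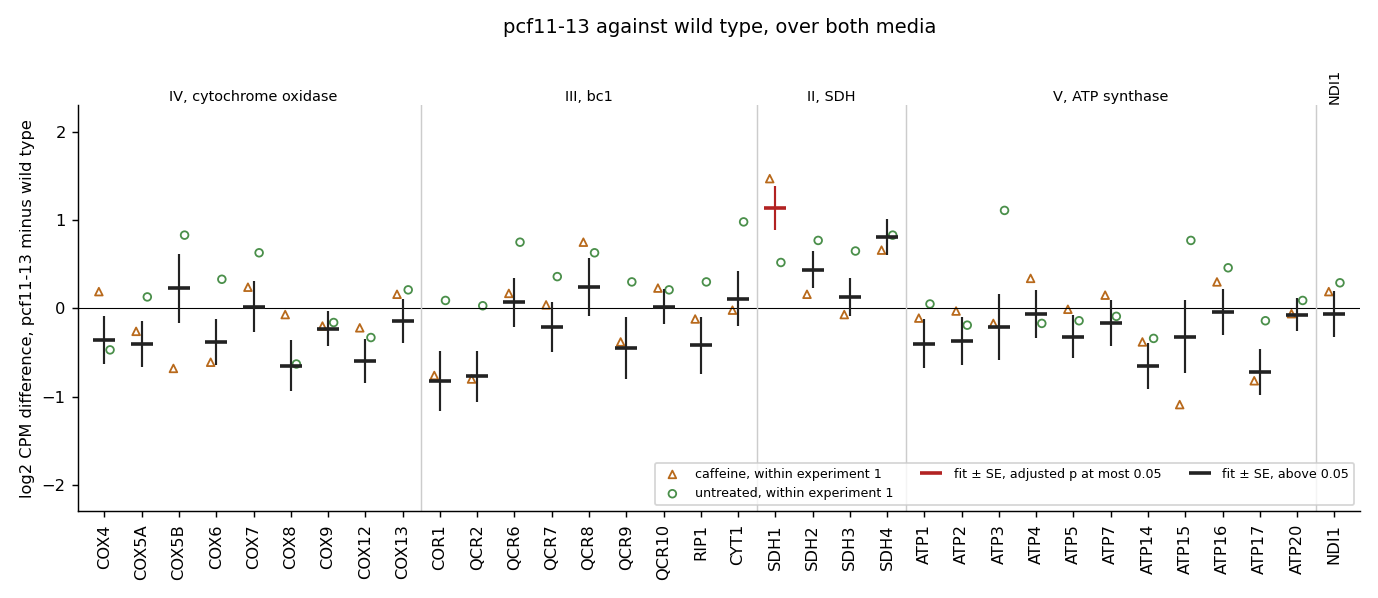
Log2 difference in CPM between pcf11-13 and wild type for the 34 genes. Horizontal ticks give the fit over both media with its standard error, and open symbols give the single differences within experiment 1; SDH1 (1.14 ± 0.25) is the 1 member called.

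In pcf11-dNL no member, and no other gene, passed the test against wild type over both media. The edgeR test called 0 of 5849 genes (163 at an unadjusted p under 0.05, 0 of them members), DESeq2 called 0, and the edgeR test without both wild-type libraries of experiment 1 called 0. The largest member estimate was COX5B, with 349 CPM in caffeine and 257 CPM untreated in pcf11-dNL, against 378 and 367 CPM in caffeine and 133 and 91.5 CPM untreated in wild type (0.51 ± 0.38, adjusted p = 1). The untreated pcf11-dNL library was above both untreated wild-type ones, and the caffeine library was below both. SDH2 followed, with 162 CPM in caffeine and 154 CPM untreated in pcf11-dNL, against 141 and 149 CPM in caffeine and 93.3 and 93.4 CPM untreated in wild type (0.43 ± 0.21, adjusted p = 1). SDH1 and NDI1 stood at 0.38 each. The median over the members was 0.13, but -0.11 with the replicate block and -0.10 without both wild-type libraries of experiment 1. Within experiment 2, with 1 library a side and no test, 7 of 34 members were higher in pcf11-dNL with caffeine (median -0.18) and 14 of 34 untreated (median -0.12). Of all genes, 46.4% were higher with caffeine and 50.2% untreated.

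The members lay mostly on one side between the 2 experiments. In wild type, 31 of 34 members were higher in experiment 2 than in experiment 1 with caffeine, by a median of 0.43 on the log2 scale, and 31 of 34 without it, by a median of 0.64. Over all genes, 49.5% and 52% were higher. These are differences between single libraries, with no test. The exceptions in both media were COX5B, SDH1 and SDH4. With caffeine these were about level (-0.04, -0.04 and -0.03), and untreated they were lower (-0.54, -0.34 and -0.24). SDH2, counted as higher untreated, was level there (0.00). Summed over the 34 genes, experiment 2 gave 8742 CPM with caffeine and 9466 CPM without it in wild type, against 6560 and 6064 CPM in experiment 1. The mutant grown in experiment 2, pcf11-dNL, had 7738 CPM with caffeine and 9291 CPM without, and pcf11-13, grown in experiment 1, had 6177 and 6796 CPM. Complex III stood at 3240 CPM with caffeine and 3313 CPM without it in wild type of experiment 2, against 2235 and 1770 CPM in experiment 1. HAP4, the limiting activator subunit, had 111 CPM with caffeine and 670 CPM without it in wild type of experiment 2, against 150 and 110 CPM in experiment 1. The wild-type libraries of experiment 1 are also those with the high URA3 and 2-micron counts. The part of HAP4 or of those counts in this difference was not tested.

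**Figure D4:**
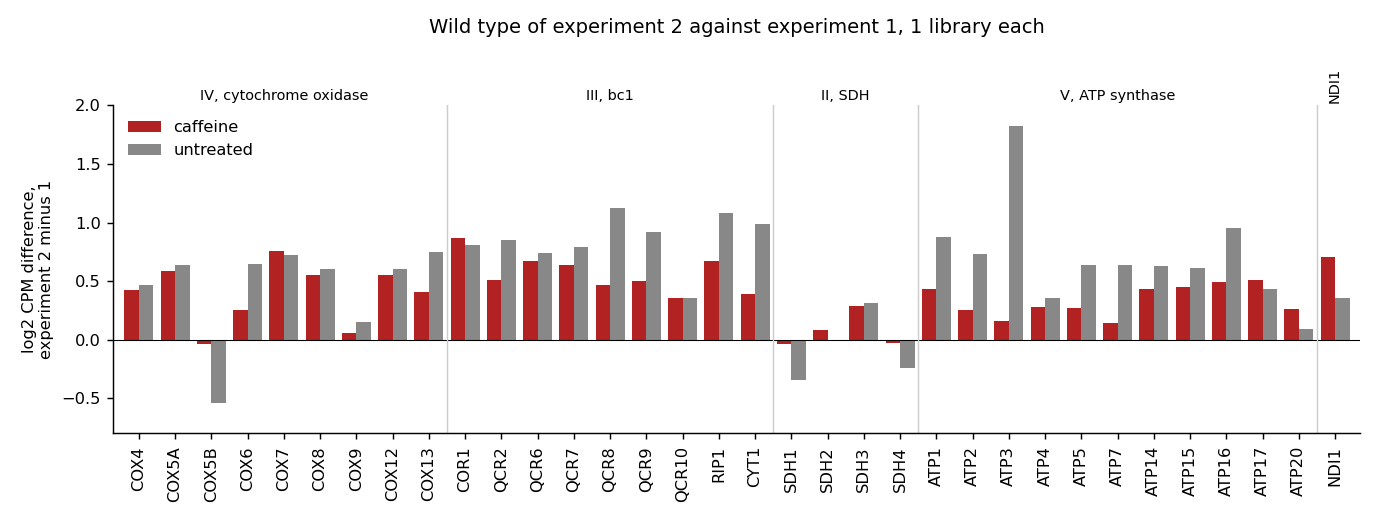
Log2 difference in CPM between the wild-type libraries of experiment 2 and experiment 1, with caffeine and untreated, 1 library on each side. In each medium 31 of 34 values are above 0, SDH2 untreated only at 0.00. COX5B, SDH1 and SDH4 are below 0 in both, but about level with caffeine (-0.04, -0.04 and -0.03).

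The 3′ ends of the members were also compared. Lengths are each gene's average 3′ UTR length as deposited, and 33 members with at least 20 counts in every library were tested with limma. ATP3 was left out. Averaged over the libraries, the members' 3′ UTRs ran from 66.9 nt for COX5B to 489 nt for CYT1, with a median of 230 nt, against 141 nt over all genes. With caffeine 1 member passed the test, against 1.37% of all genes. ATP17 (YDR377W), the subunit f gene of ATP synthase, averaged 279 nt in pcf11-13, 313 in pcf11-dNL and 318 and 317 in wild type with caffeine, against 305 in pcf11-13, 364 in pcf11-dNL and 359 and 359 in wild type without it. Each strain was shorter with caffeine, and the change was -40 ± 4.34 nt (SE; adjusted p = 0.032). ATP17 was also shorter in pcf11-13 than in wild type, by -46.7 ± 5.32 nt (adjusted p = 0.044), the 1 member called beside 0.678% of all genes. Both pcf11-13 values lay below every wild-type value. With the replicate block the adjusted p was 0.071 for caffeine and 0.19 for pcf11-13. The first call was also lost without any 1 wild-type or pcf11-dNL library, and the second without any 1 library other than the untreated pcf11-13 one.

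COX6 had the largest caffeine difference in length, with 335 nt in pcf11-13, 372 in pcf11-dNL and 365 and 400 in wild type with caffeine, against 274 in pcf11-13, 295 in pcf11-dNL and 262 and 285 in wild type without it. COR1 had 268 nt in pcf11-13, 266 in pcf11-dNL and 268 and 272 in wild type with caffeine, against 214 in pcf11-13, 245 in pcf11-dNL and 211 and 216 in wild type without it. Neither gene's groups overlapped, and both narrowly missed the threshold: COX6 at 88.8 ± 13.2 nt and COR1 at 47.1 ± 6.89 nt (adjusted p = 0.054 each). Without the untreated pcf11-13 library both were called (adjusted p = 0.032 and 0.048), as were 7 members and 726 genes in all, against 71 genes in the main fit. Without the pcf11-13 caffeine library 7 members and 721 genes were called. Calls thus rose over all genes and not only in the members. When both wild-type libraries of experiment 1 were left out, 0 genes and 0 members were called. Of the 33 members, 7 had no overlap in length between caffeine and untreated libraries, against 15.9% of all genes, 4.61% longer and 11.2% shorter: COX6, COR1, SDH2 and ATP1 were longer and COX7, ATP7 and ATP20 shorter. With that pair of libraries left out 8 members had no overlap, against 22.4% of all genes. The pcf11-dNL strain gave 0 calls in length (limma, 199 genes and 0 members at an unadjusted p under 0.05).

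**Figure D5:**
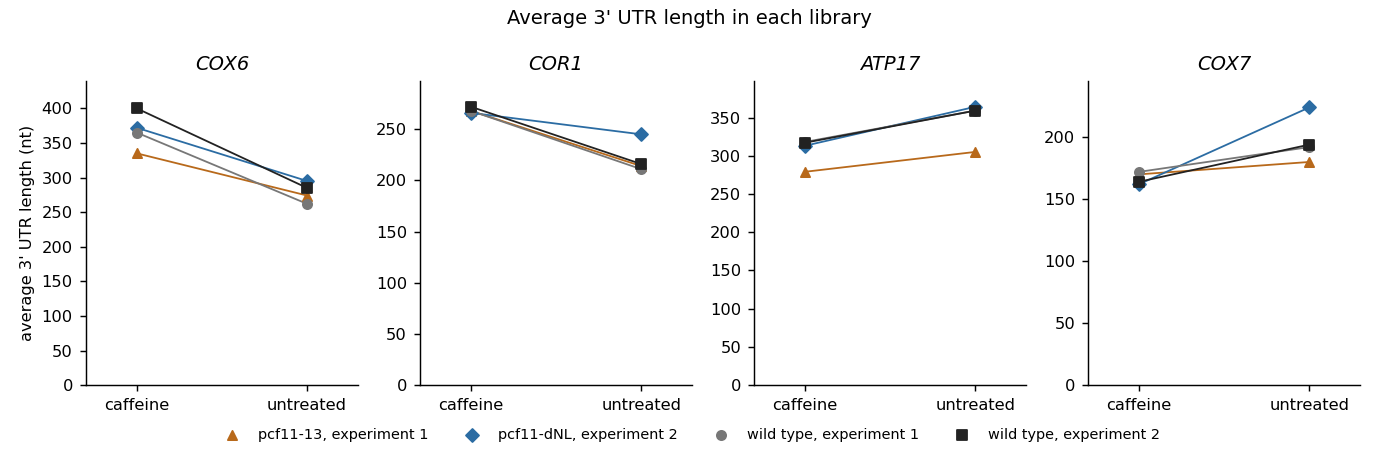
Average 3′ UTR length in nucleotides in each library for COX6, COR1, ATP17 and COX7, caffeine to the left of untreated. COX6 (335 to 400 nt against 262 to 295 nt) and COR1 (266 to 272 nt against 211 to 245 nt) are longer with caffeine, and both pcf11-13 points of ATP17 (279 and 305 nt) lie below the others of their medium.

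The truncated share is the authors' fraction of a gene's reads that were not assigned to its 3′ UTR. It had a median of 1.49% over the members, against 7.31% over all genes. The part of gene length in this difference was not tested. The members' annotated lengths ran from 180 bases (COX9) to 1923 (SDH1). With caffeine the truncated share passed the test in 1 member, against 10.5% of all genes. Of all 5167 genes tested, 470 fell and 74 rose, with a median change of -1.30 percentage points. CYT1 had 2.07% in pcf11-13, 1.47% in pcf11-dNL and 0.817% and 0.449% in wild type with caffeine, against 4.44% in pcf11-13, 4.45% in pcf11-dNL and 3.3% and 2.2% in wild type without it. CYT1 had 60 and 182 reads in untreated wild type (experiments 1 and 2), 90 in untreated pcf11-dNL and 315 in untreated pcf11-13. These shares thus rest on few truncated reads. The groups did not overlap, but only narrowly (2.2% untreated against 2.07% with caffeine). The change was -2.39 ± 0.48 percentage points (adjusted p = 0.046). It was lost with the replicate block (adjusted p = 0.059) and without any 1 of the 8 libraries (adjusted p from 0.051 to 0.15). In pcf11-13 the limma test called 0 members beside 11 genes in all (4 members at an unadjusted p under 0.05), with the highest estimate in COX13 (9.88 ± 2.68 points, adjusted p = 0.21).

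Genes that build or feed the chain were set beside the members in the caffeine comparison over all strains. Of 43 assembly factors of the complexes, 26 fell and 0 rose, with a median of -0.70, beside 18% of all genes that fell and 19.9% that rose. COX14 fell by 1.72 on the log2 scale, and FMC1, needed for ATP synthase assembly, by 1.59. COX17, the copper chaperone of cytochrome oxidase, fell by 1.52 and ATP11, an F1 assembly chaperone, by 1.50. COX17 had 266 CPM in pcf11-13, 147 in pcf11-dNL and 156 and 115 in wild type with caffeine, against 482 in pcf11-13, 503 in pcf11-dNL and 465 and 434 in wild type without it. Its groups were well apart. Without both wild-type libraries of experiment 1, 12 of the 43 fell and 0 rose, with a median of -0.70, beside 5.75% of all genes that fell and 7.82% that rose.

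The 3 genes related in sequence to succinate dehydrogenase subunits all rose: SHH3 by 2.36, SHH4 by 1.44 and YJL045W by 0.79, while SDH1 itself fell. SHH3 had 135 CPM in pcf11-13, 222 in pcf11-dNL and 211 and 169 in wild type with caffeine, against 78.4 in pcf11-13, 14.9 in pcf11-dNL and 31.8 and 30.7 in wild type without it. Without the 2 wild-type libraries of experiment 1, 2 of the 3 were called. Of the external NADH dehydrogenases, NDE2 rose by 1.68 ± 0.23 and NDE1 changed by -1.40 ± 0.27. Of 7 carriers and dehydrogenases 2 rose and 1 fell, CYB2, the lactate dehydrogenase, being the other that rose (0.88 ± 0.25). In the fit without that pair, 2 of these rose and 0 fell, so the NDE1 call was lost. Among 13 other citric acid cycle genes 5 rose, led by the citrate synthase CIT3 (2.51 ± 0.16), and 2 fell, IDH2 (-1.09 ± 0.35) and ACO1 (-0.93 ± 0.27). Of 6 ATP synthase accessory genes, STF2 (-1.66 ± 0.33) and ATP19 (-1.04 ± 0.15) fell and 0 rose. Of 12 tested activators of mitochondrial mRNAs 3 rose and 5 fell, among them PET309 (-1.16 ± 0.21), an activator for COX1. Of 9 coenzyme Q genes COQ7 fell (-0.82 ± 0.18), and of 4 carriers of ADP, ATP and phosphate 0 were called. Without both wild-type libraries of experiment 1, the citric acid cycle list had 1 that rose and 0 that fell, and the activators of mitochondrial mRNAs 0 and 1.

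Among 9 tested regulators of respiratory genes, HAP1, the heme-responsive activator, rose by 0.64 ± 0.16 and HAP3 changed by -1.09 ± 0.25. HAP4 had 258 CPM in pcf11-13, 119 in pcf11-dNL and 150 and 111 in wild type with caffeine, against 256 in pcf11-13, 406 in pcf11-dNL and 110 and 670 in wild type without it. It was lower with caffeine in both strains of experiment 2 and not in experiment 1, and its fitted change of -1.25 ± 0.52 missed the threshold (adjusted p = 0.086). HAP2 (-0.01 ± 0.18) and ROX1 (-0.18 ± 0.28) did not pass, and HAP5, at 0 to 6.87 counts, was not tested. Without both wild-type libraries of experiment 1, 0 of these regulators were called. In pcf11-13 against wild type, GUT2, the mitochondrial glycerol-3-phosphate dehydrogenase, was the 1 gene of these non-mating lists that was called, with 202 CPM in caffeine and 136 CPM untreated in pcf11-13, against 54 and 77.5 CPM in caffeine and 37.7 and 65.3 CPM untreated in wild type (1.50 ± 0.24, adjusted p = 0.021).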

How the data were processed

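Poly(A)-site reads of 8 libraries were used. The 4 deposited tables cover 5933 genes and hold, per the file headers, expected counts per gene, not normalized (9.72% whole within 1e-06), the average 3′ UTR length (a score in nucleotides), the truncated fraction, and a proximal fraction of unstated bounds. The submitters' processing notes name sacCer3. How reads were aligned, counted and assigned to strand is not given in the sources used. None of the members overlaps another listed gene. Of the gene IDs, 5919 matched a locus tag of RefSeq R64, which gave symbols and promoters.

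Rounded counts went into edgeR 4.0.16 under R 4.3.3 (filterByExpr, TMM, glmQLFTest, Benjamini-Hochberg over 5849 genes, threshold 0.05). Caffeine over all strains and the mutant effects came from genotype plus medium, and caffeine in wild type and the interactions from 1 mean per strain and medium, whose residual spread is that of the wild-type pairs. Single-library log2 values used a prior count of 2. For 3′ UTR length and truncated fraction, limma 3.58.1 was run on the deposited values of genes that reached 20 counts in all 8 libraries. The proximal fraction was given as values, with exact 95% binomial intervals over the gene's counts. Intervals cover counting error only. DESeq2 1.42.0 and the other settings were alternatives. The fits were also run on simulated data, drawn with the same spread for every gene and no difference between experiments. Those runs cannot show how the fits behave where experiments differ. The experiment numbers in the labels were read as shared experiments, and the deviations of wild-type libraries of the same experiment correlated (r = 0.194 over 5849 genes), so they were used as a replicate block in an alternative. Named in full were members called in any comparison, the 3 largest changes in each expression comparison, COX5A and COX5B, and the highest and lowest member; of each further list, the called genes with the largest change. COR1 and COX6 lengths, ATP4, HAP4 and the genes of the experiment comparison were named after their values were seen. Members, lists and tests were chosen with earlier results of these data known.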

Additional observations from a re-analysis of the deposited data

Results flagged for a closer look

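URA3 and the genes of the 2-micron plasmid took 11.4% of the counts in the wild-type caffeine library of experiment 1 and 8.36% in the untreated one, against 0.252% to 0.463% in the other 6 libraries. They stand out as signal outside the measurement of the members, in cells whose label names ura3-1.

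The proximal share, another deposited measure of each gene's 3′ ends, was more than 5 percentage points above every wild-type library in the pcf11-13 caffeine library for 3 members. The share of all genes past this margin in that library was not computed, so the 3 members are not set apart from other genes. In COX4 it was 11.7% there (64 of 552 reads; exact 95% binomial interval 9.04% to 14.6%), against 0.452% to 1.9% in the other 7 libraries. In COX13 it was 22.6% (104 of 460 reads; 18.9% to 26.7%), against 5.76% to 16.3%, and its interval overlaps those of the wild-type caffeine library of experiment 1 (13.7% to 19.2%) and of untreated pcf11-13 (12.3% to 19.3%). In QCR10 it was 10.1% (33 of 325 reads; 7.09% to 14%), against 1.07% to 5.31%. COX12, chosen after its values were seen, was high in another library: it had 17.7% (15% to 20.7%) in the wild-type caffeine library of experiment 2, against 2.55% to 11.7% in the other 7. Each value comes from 1 library and has no replicate, and the difference was not tested.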

How the results depend on the processing

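No direction of a called result reversed. Without both wild-type libraries of experiment 1, chosen as an alternative after seeing the data, caffeine over all strains called 793 genes and 2 members, pcf11-13 called 9 genes and 0 members, and 3′ UTR length and truncated share called 0 genes and 0 members in the caffeine and pcf11-13 comparisons. With the experiment number as a replicate block, pcf11-13 called 30 genes and 0 members in expression, and 8 genes and 0 members in 3′ UTR length. Caffeine called 34 genes and 0 members in length. In truncated share it called 576 genes and 0 members, against 544 genes in the main fit, and pcf11-13 called 0 genes. The block took the threshold from COX5B, SDH1 in pcf11-13, both ATP17 lengths and the CYT1 truncated share, and from no other named result. For caffeine in wild type it called 12 members in place of 8, and 1880 genes in place of 1849. DESeq2 called 763 genes and 4 members in pcf11-13, and 42 and 3 genes in the caffeine interactions of pcf11-13 and pcf11-dNL. A variance trend with robust fitting called 0 members in length for caffeine and for pcf11-13, and 901 genes and 3 members in truncated share for caffeine. The cause was not tested.

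Leaving out 1 library gave 1087 to 2835 genes and 2 to 14 members for caffeine over all strains, 989 to 1855 genes and 5 to 8 members for caffeine in wild type, 23 to 199 genes and 0 to 1 members for pcf11-13, and 0 to 1 genes for pcf11-dNL. The interactions gave 0 to 177 genes for pcf11-13 and 0 to 13 for pcf11-dNL. Length gave 1 to 726 genes and 0 to 7 members for caffeine, 0 to 240 genes and 0 to 1 members for pcf11-13, and 0 to 2 genes for pcf11-dNL. Truncated share gave 0 to 453 genes and 0 to 0 members for caffeine and 0 to 3 genes for pcf11-13. A library left alone in its group was assumed to vary like the others. Depth limits low members such as ATP3, with about 14 counts in one library.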

Other observations

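Subunits encoded by mitochondrial DNA, looked at after their values were seen, stood beside the nuclear members in the same tables. Yeast mitochondrial mRNAs are known to lack poly(A) tails, so few 3′ ends of them are read. COX1, the largest catalytic subunit of cytochrome oxidase, had 163 counts in pcf11-13, 424 in pcf11-dNL and 316 and 410 in wild type with caffeine, against 219 in pcf11-13, 668 in pcf11-dNL and 341 and 521 in wild type without it. These counts are not scaled for depth. Totals in pcf11-13 were similar with and without caffeine (2088078 and 2393801 counts), so COX1 changed little there. In pcf11-dNL they were 4555751 and 1071339, so COX1 fell by more than its counts show. Wild type was likewise deeper with caffeine in both experiments. With scaling for depth, COX1 changed by -1.77 ± 0.37 over all strains (log2, SE, edgeR adjusted p = 0.0069). The 6 other such genes, COX2, COX3, COB, ATP6, ATP8 and OLI1, did not pass the test, with log2 changes from -0.47 to 0.29 and adjusted p from 0.16 to 0.93.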
